A study of Arabidopsis thaliana with 12 samples.

Results

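Germinants grown for 12 days on titanium dioxide particles (TiO2, titania) were compared with germinants grown on 0.1 mM KCl. The comparison was chosen by the array labels: 3 arrays labelled as TiO2 treated germinants and 3 labelled as KCl treated germinants, 6 of the 12 arrays of the series. All were wild-type Arabidopsis thaliana of the Columbia (Col-0) ecotype, and RNA was taken from the whole germinant. TiO2 germinants had been kept on 2 mL of liquid with 500 mg of particles per L, and KCl germinants on 2 mL of the salt solution, in each case as 50 seeds on a wetted glass microfiber disc. Whether the TiO2 particles were suspended in KCl solution is not stated in the labels. The remaining arrays of the series are 3 of germinants on cerium dioxide particles (CeO2, ceria), also at 500 mg per L, and 3 of germinants on sterile purified water. The TiO2 and KCl arrays are called biological replicates in the labels, which do not say whether a replicate was a separate dish, sowing or seed lot. The p-values below therefore measure the spread between arrays, estimated over all 12 arrays of the series, the CeO2 and water ones included.

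A germinant is a young seedling, and those used here were 12 days old. A seedling lives in part on seed reserves only at first, until its cotyledons become photosynthetic, while its root makes contact with the liquid. Storage proteins, oleosins and late embryogenesis abundant (LEA) proteins are made while the seed matures, and their transcripts decline after germination. Class III peroxidases, chitinases, germin-like proteins and cysteine-rich proteins are secreted into the cell wall, where they take part in wall cross-linking and in defence against microbes. Chloroplast genes are expressed with the help of many nuclear-encoded proteins, among them pentatricopeptide repeat (PPR) proteins that edit, splice or stabilise chloroplast RNA.

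Each Affymetrix array gave a value for 22746 probe sets on a log2 scale, so that a difference of 1 log2 is 2-fold. Array medians ran from 5.69 to 5.74 log2 in the 6 arrays, and their lowest values from 2.45 to 2.51, so group means under about 4 log2 lie near the floor of the scale. Where one of the groups lies there, the change is given as at least that large. Correlations over probe sets were 0.993 to 0.997 between arrays of the same group and 0.988 to 0.992 between TiO2 and KCl arrays. Of the tissue markers chosen, 1 of 6 for leaf and cotyledon and 4 of 12 for root had a probe set of their own. The photosynthetic marker RCA averaged 13.7 log2 in TiO2 and 13.7 in KCl, and the root marker PYK10 13.3 and 13.2. The other root markers differed by 0.34 (EXPA7), 0.07 (EXPA18) and -0.44 log2 (PRX44, AT4G26010). Only PRX44 passed the threshold in limma (adjusted p = 0.0267), and not without TiO2 replicate 1, TiO2 replicate 3 or KCl replicate 2. Of 11 flower and pollen markers 2 had a probe set of their own, and these averaged 3.34 and 4.64 log2 over the 6 arrays. No marker of senescent leaf had a probe set of its own. In a whole germinant, a lower level can mean fewer cells of a type or less RNA per cell, and the arrays cannot tell these apart.

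TiO2 germinants had more large falls than large rises. Of the 22746 probe sets, 1334 (5.86%) were lower and 1073 (4.72%) higher in TiO2 than in KCl at a Benjamini-Hochberg adjusted p under 0.05 in limma. Changes of at least 2-fold numbered 167 (0.734%) among the lower and 37 (0.163%) among the higher probe sets. Both counts over all sizes depended on the fit: with only the 6 compared arrays, 872 were lower and 560 higher, and without KCl replicate 1 the higher ones numbered 679 and the lower ones 1103. The median difference over all probe sets was 0.02 log2. When the probe sets were ranked by signal and split into 5 equal bins, these large falls numbered 0, 7, 59, 63 and 38 in the bins from dim to bright. The large rises numbered 0, 8, 14, 9 and 6. The 3 arrays of each group did not overlap in 24.4% of all probe sets. Most genes named below as risen or fallen were picked partly for not overlapping, so their lack of overlap describes the choice and adds no support.

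Most of the genes behind these counts carry a locus number and no symbol. Probe sets paired with exactly 1 gene numbered 13513, and 11933 of them had a locus number only; 551 (4.62%) of these were lower and 461 (3.86%) higher in TiO2. Among the 1580 with a symbol 126 (7.97%) were lower and 80 (5.06%) higher. A further 8730 probe sets were paired with no gene in the annotation used here, and 634 of these were lower and 519 higher, and these calls cannot be assigned to a process. Counting each gene once, at its brightest probe set, 672 of 13355 genes (5.03%) were lower and 541 (4.05%) higher, with a median difference of 0.02 log2. These shares and that median are the background for the gene groups described next. Families picked by gene symbol lack the members known by locus number only. These are the UDP-glycosyltransferase, ATG8, expansin, SWEET and TMT, RALF, wall acetylation, WRKY, bZIP, U-box and calmodulin-like families. For them the shares among probe sets with a symbol, 7.97% lower and 5.06% higher, are the closer background.

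**Figure D1:**
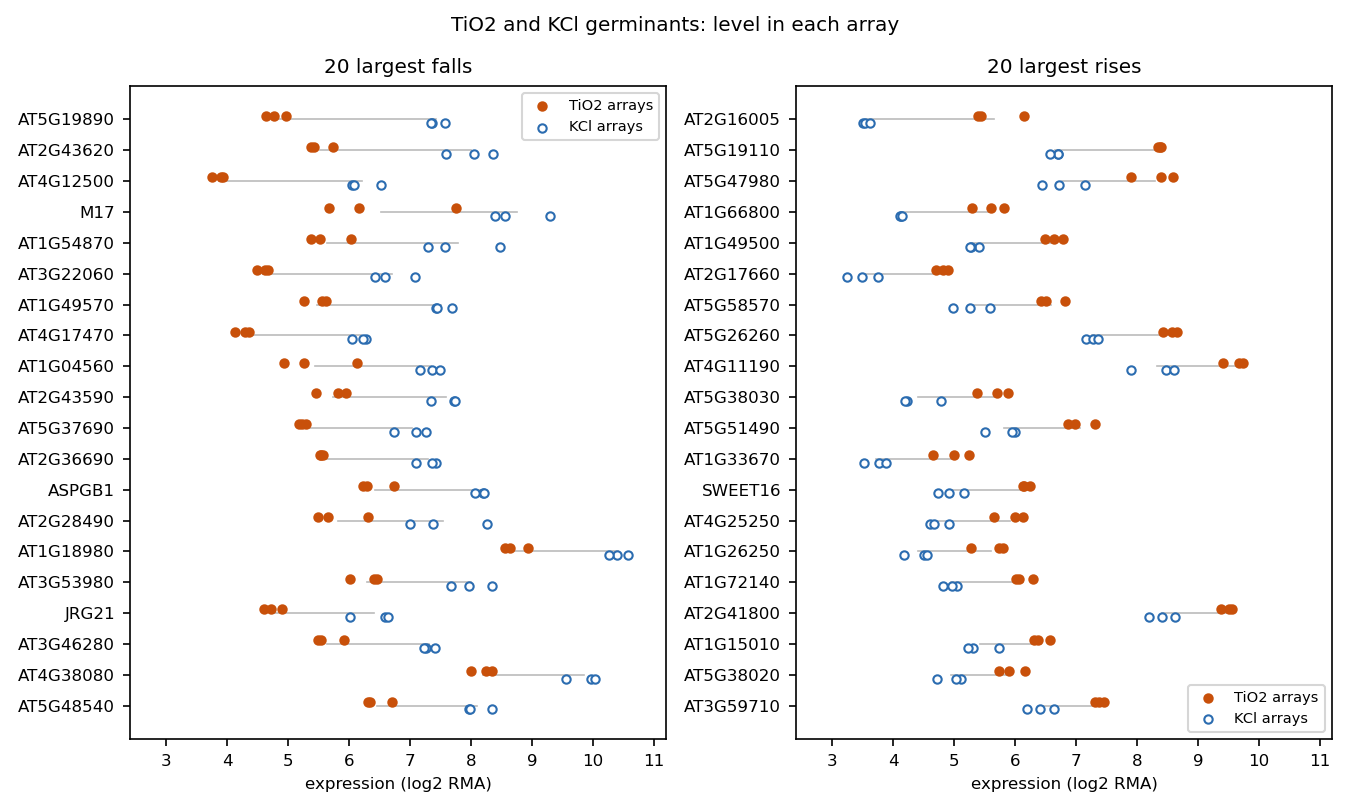
Level in each TiO2 array (filled) and each KCl array (open) of the 20 largest falls and 20 largest rises among probe sets of 1 gene that passed the threshold and did not overlap between the groups. The horizontal axis is log2 expression and the grey line joins the group means; the widest gap among the falls is that of AT5G19890 (2.63 log2) and among the rises that of AT2G16005 (2.11 log2).

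Secreted proteins of the cell wall and of defence gave the largest falls. AT5G19890, a class III peroxidase gene, read 4.97, 4.63 and 4.77 log2 in the TiO2 arrays, against 7.35, 7.34 and 7.57 in the KCl arrays. Its TiO2 arrays all lay more than 2 log2 below every KCl array, and it fell by 2.63 ± 0.15 log2 (6.19-fold; adjusted p = 3.03e-08). A further peroxidase gene, AT1G49570, had 5.61, 5.27 and 5.55 log2 in the TiO2 arrays, against 7.68, 7.42 and 7.43 in the KCl arrays. The groups were again far apart, and the gene fell by 2.04 ± 0.14 log2 (4.1-fold; adjusted p = 3.02e-07). Of 73 class III peroxidase genes listed 55 were measured, and 12 of these fell and 1 rose, beside 5.03% and 4.05% over all genes. The family median was -0.15 log2, and 43 of the 55 differences were negative. The gene that rose was AT1G34510, by 0.69 (adjusted p = 0.00209). The count of 12 falls became 7 without TiO2 replicate 1.

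Chitinases, which cleave the chitin of fungal walls, were lower in most of the measured cases. AT2G43620 had 5.73, 5.43 and 5.38 log2 in the TiO2 arrays, against 7.59, 8.36 and 8.05 in the KCl arrays. No array of one group came near the other, and it fell by 2.49 ± 0.19 log2 (5.6-fold; adjusted p = 6.1e-07). AT2G43590, a neighbour of it, had 5.95, 5.46 and 5.82 log2 in the TiO2 arrays, against 7.34, 7.72 and 7.73 in the KCl arrays. The groups did not overlap there either, and it fell by 1.86 ± 0.15 log2 (3.62-fold; adjusted p = 1.2e-06). Of 23 chitinase genes listed 15 were measured, and 9 fell (60%, beside 5.03% over all genes). None rose in limma (0 higher at an unadjusted p under 0.05), and the median was -0.61 log2. AT2G43600 fell by 1.12 (adjusted p = 1.9e-05) and ChiC, a chitinase of another glycosyl hydrolase family, by 0.89 (adjusted p = 0.000373).

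The chitinase genes include 6 in a row on the chromosome, CHI, AT2G43580, AT2G43590, AT2G43600, AT2G43610 and AT2G43620, which are named together here for their position, after their values had been seen. From CHI to AT2G43620 the differences were 0.19, -0.29, -1.86, -1.12, -0.71 and -2.49 log2. The first and the second of these did not pass the threshold (adjusted p = 0.30 and 0.158). Similar sequences in such a row can share hybridisation, which was not tested here.

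Single genes of other secreted families fell too. AT3G22060, a cysteine-rich protein gene of the DUF26 type, had 4.62, 4.67 and 4.48 log2 in the TiO2 arrays, against 6.58, 6.42 and 7.09 in the KCl arrays. Every TiO2 array was below every KCl array, and the gene fell by 2.11 ± 0.17 log2 (4.31-fold; adjusted p = 9.13e-07). AT5G48540, of the same type, fell by 1.64 (adjusted p = 1.51e-05) and AT1G18980, a germin-like protein gene, by 1.71 (adjusted p = 1.53e-07). OSM34, an osmotin, fell by 1.2 (adjusted p = 0.0017). It was the only fall among 19 measured thaumatin-like genes (2 without TiO2 replicate 1, KCl replicate 2 or KCl replicate 3), 5.26% beside 5.03% over all genes. Of the same genes 2 rose (0 without TiO2 replicate 1, TiO2 replicate 3 or KCl replicate 3, and 1 without KCl replicate 1), 10.5% beside 4.05%. AT1G50060, a PR1-like secreted protein gene, fell by 1.17 (adjusted p = 0.00024). It was the only one of 19 measured PR1-like genes that fell (2 without TiO2 replicate 1), 5.26% beside 5.03% over all genes. Rises numbered 2 (1 when any of the arrays but KCl replicate 3 was left out), 10.5% beside 4.05%, and the family median was -0.07 log2.

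Seed maturation transcripts were lower in TiO2. Of 42 LEA, oleosin and storage protein genes listed 20 were measured. Of these 13 fell (65%, beside 5.03% over all genes), 8 of them at least 2-fold. None rose (0 higher at an unadjusted p under 0.05 in limma). The list median was -0.95 log2, and 19 of 20 differences were negative. AT1G54870, a short-chain dehydrogenase gene of maturing seeds, had 5.52, 5.37 and 6.03 log2 in the TiO2 arrays, against 7.3, 7.58 and 8.48 in the KCl arrays. The highest TiO2 array was still more than 1 log2 below the lowest KCl array, and the gene fell by 2.14 ± 0.27 log2 (4.42-fold; adjusted p = 8.25e-05). AT2G28490, a cupin-type storage protein gene, had 5.66, 5.49 and 6.31 log2 in the TiO2 arrays, against 7.0, 7.37 and 8.26 in the KCl arrays. It fell by 1.72 ± 0.27 log2 (3.3-fold; adjusted p = 0.000535), and its groups did not overlap. M17, a late embryogenesis transcript, read 5.67, 6.16 and 7.75 log2 in the TiO2 arrays, against 8.39, 8.56 and 9.3 in the KCl arrays, the widest spread within a group among the largest falls.

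Replicate 3 was the highest array for seed transcripts in both groups. Averaged over the 20 measured genes, the level was 5.07, 4.96 and 5.48 log2 in TiO2 replicates 1 to 3, against 5.88, 5.98 and 6.46 in KCl replicates 1 to 3. The groups did not overlap in this mean either. AT3G15670, a LEA gene, fell by 1.59 (adjusted p = 0.00018). LEA genes that did not pass the threshold included LEA4-5, at -0.71 log2 (adjusted p = 0.0511). AT1G04560, an AWPM-19 type membrane protein gene that was not in the list, had 5.26, 4.93 and 6.13 log2 in the TiO2 arrays, against 7.16, 7.36 and 7.49 in the KCl arrays, and it fell by 1.9 ± 0.23 log2 (3.73-fold; adjusted p = 6.3e-05). Of 13 markers of dry or ungerminated seed 2 had a probe set of their own, and their mean was 5.34, 5.52 and 6.67 log2 in TiO2 replicates 1 to 3, against 7.09, 7.64 and 8.2 in KCl replicates 1 to 3. These markers, PAP85 and M17, are members of the seed list too, so they are not a separate measurement of it. How many seeds in each dish had not germinated or lagged behind is not given in the labels, and its part in these levels was not tested.

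**Figure D2:**
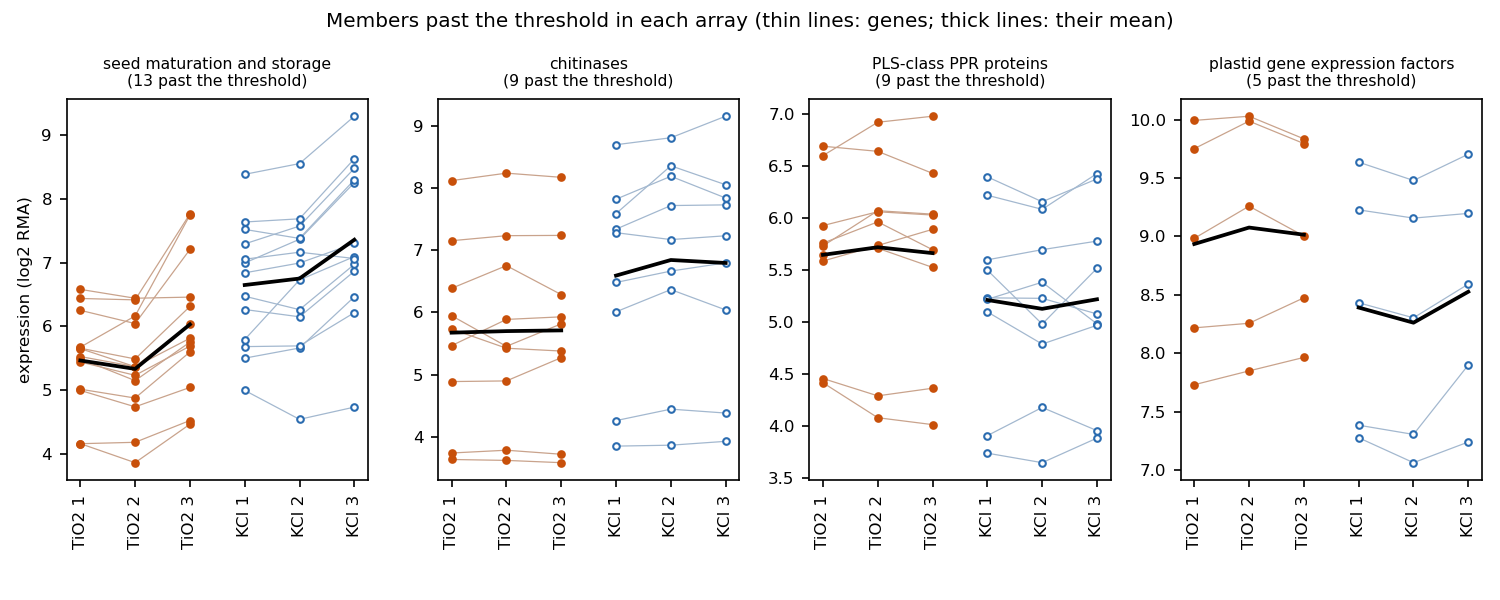
Log2 expression in each array of the members that passed the threshold in 4 gene groups: seed maturation and storage (13), chitinases (9), PLS-class PPR proteins (9) and plastid gene expression factors (5). Thin lines are genes and thick lines their mean; lines join the same gene and give no order of replicates. The means of these seed and chitinase members are lower in all 3 TiO2 arrays than in any KCl array, and those of the PPR and plastid factor members are higher. The members shown were picked by their call in the same arrays, so this separation follows from the choice.

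Single lipid transfer and GDSL esterase genes fell, while their families as a whole lay near the median of all genes or were split. AT4G12500, a proline-rich lipid transfer protein gene of the EARLI1 type, had 3.75, 3.9 and 3.94 log2 in the TiO2 arrays, against 6.05, 6.08 and 6.52 in the KCl arrays. Its TiO2 arrays were near the floor, and it fell by 2.35 ± 0.19 log2 (at least 5.11-fold, since the lower group lies near the floor; adjusted p = 8.99e-07). AT4G12490, which is separated from it by 1 protein-coding gene, fell by 1.02 (adjusted p = 0.000379). The 2 further EARLI1-type genes with a probe set of their own, AT2G45180 and AT1G62510, were among the bright ones, at 0.01 and 0.03 log2, and did not pass the threshold. AT5G37690, a GDSL esterase gene, had 5.23, 5.18 and 5.28 log2 in the TiO2 arrays, against 7.09, 7.26 and 6.74 in the KCl arrays. All TiO2 arrays were below all KCl arrays, and it fell by 1.8 ± 0.12 log2 (3.48-fold; adjusted p = 2.28e-07). Of 68 measured GDSL esterase genes 9 fell (13.2%, beside 5.03% over all genes) and 1 rose (1.47%, beside 4.05%). Rises numbered 0 to 3 when single arrays were left out. The group median was -0.02 log2, and this group was put together after its values had been seen. AT3G53980, a lipid transfer protein gene, fell by 1.7 (adjusted p = 9.54e-06).

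Oxygenases and enzymes of nitrogen and specialised metabolism were among the falls. AT2G36690, an oxoglutarate-dependent oxygenase gene, had 5.52, 5.54 and 5.56 log2 in the TiO2 arrays, against 7.1, 7.43 and 7.36 in the KCl arrays, the smallest spread within TiO2 among the 20 largest falls. It fell by 1.76 ± 0.10 log2 (3.38-fold; adjusted p = 1.93e-08). Of 5 measured jasmonate genes, the related oxygenase genes JRG21 and AT5G05600 fell, by 1.67 (adjusted p = 3.44e-06) and 1.27 (adjusted p = 2.44e-06); the other 3 lay between -0.03 and 0.12 log2. ASPGB1, an asparaginase that frees ammonium from asparagine, had 6.73, 6.29 and 6.22 log2 in the TiO2 arrays, against 8.19, 8.2 and 8.07 in the KCl arrays. The groups were more than 1 log2 apart, and it fell by 1.74 ± 0.13 log2 (3.34-fold; adjusted p = 7.83e-07). NRT2.5, a high-affinity nitrate transporter, fell by 1.27 (adjusted p = 0.00010), while ASPGA1, the other asparaginase gene, was at 0.17 log2 (adjusted p = 0.439). Only 3 of 33 listed nitrogen genes had a probe set of their own.

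UDP-glycosyltransferases attach sugars to hormones and phenolic compounds, and only those with a symbol were counted. They fell in 12 of 50 measured cases (24%, beside 5.03% over all genes and 7.97% of probe sets with a symbol). They rose in 1 (0 to 2 when single arrays were left out), 2% beside 4.05% and 5.06%. UGT84A3, which glucosylates hydroxycinnamic acids, had 8.06, 7.73 and 7.33 log2 in the TiO2 arrays, against 9.17, 9.06 and 9.08 in the KCl arrays. It fell by 1.4 ± 0.14 log2 (2.64-fold; adjusted p = 1.0e-05). UGT72E1, a further member, fell by 1.09 (adjusted p = 1.51e-05). The family median was -0.17 log2. The 12 falls became 5 with only the 6 compared arrays and 7 without TiO2 replicate 2, without TiO2 replicate 3 or without KCl replicate 3.

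Anthocyanin synthesis overlaps with that family. Of 8 measured flavonoid genes 6 fell (75%, beside 5.03% over all genes). The 2 that did not, UGT78D1 and BAN, were at -0.14 and 0.15 log2. DFR, which reduces dihydroflavonols, had 9.68, 9.54 and 9.27 log2 in the TiO2 arrays, against 10.35, 10.39 and 10.35 in the KCl arrays. The groups did not overlap, and it fell by 0.87 ± 0.10 log2 (1.83-fold; adjusted p = 3.5e-05). With only the 6 compared arrays the count of falls was 2. BCAT4, of methionine-derived glucosinolate synthesis, had 5.62, 5.83 and 5.83 log2 in the TiO2 arrays, against 6.43, 6.75 and 7.06 in the KCl arrays. It fell by 0.99 ± 0.14 log2 (1.98-fold; adjusted p = 0.000183). In the iron deficiency list 4 of 7 measured genes fell (57.1%, beside 5.03% over all genes), BHLH101 the most, by 0.88 (adjusted p = 6.47e-05). That count of 4 became 1 without TiO2 replicate 2 or without KCl replicate 2, and 2 without TiO2 replicate 3.

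Single regulators of stress and growth responses fell, and most of the measured ones did not pass the threshold. Falls numbered 4 of 7 in the list of salicylic acid and pattern-triggered defence, 1 of 6 WRKY factors, 3 of 9 U-box ubiquitin ligases and 2 of 11 RALF peptides (1 without TiO2 replicate 1 or without KCl replicate 2), and none of these rose in limma (1, 1, 0 and 0 higher at an unadjusted p under 0.05, in that order). Falls made up 57.1%, 16.7%, 33.3% and 18.2% of these small lists, in the same order, beside 5.03% over all genes. The WRKY, U-box and RALF lists hold only genes with a symbol, and 7.97% of probe sets with a symbol fell. Some genes stand in more than 1 of these lists. No call was made in limma among 17 bZIP factors (1 higher and 2 lower at an unadjusted p under 0.05; without KCl replicate 3, 1 rose and 2 fell, and without TiO2 replicate 2, 1 rose) or 7 calmodulin-like genes (0 and 0). STZ, a zinc finger repressor induced by many stresses, had 7.48, 7.51 and 7.47 log2 in the TiO2 arrays, against 8.86, 8.64 and 9.21 in the KCl arrays. The KCl arrays differed among themselves more than the TiO2 arrays, and the groups did not overlap; STZ fell by 1.42 ± 0.23 log2 (2.68-fold; adjusted p = 0.000611). WRKY22, a transcription factor of pattern-triggered immunity, had 5.37, 5.43 and 5.34 log2 in the TiO2 arrays, against 6.51, 6.58 and 6.64 in the KCl arrays. It fell by 1.2 ± 0.09 log2 (2.3-fold; adjusted p = 8.74e-07). PUB22 and PUB25, ubiquitin ligases of the U-box type, fell by 0.56 (adjusted p = 0.00373) and 0.49 (adjusted p = 0.00219). RALFL27, a gene of a secreted signalling peptide, fell by 1.03 (adjusted p = 0.00121), and WES1, which conjugates auxin to amino acids, by 0.82 (adjusted p = 0.000454). WRKY53, a related factor, was at 0.32 log2 (adjusted p = 0.0548) with both group means near the floor. Among the ATG8 genes of autophagy all 9 differences were negative and 1 passed (2 without KCl replicate 3), APG8A, which fell by 0.48 (adjusted p = 0.0043).

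**Figure D3:**
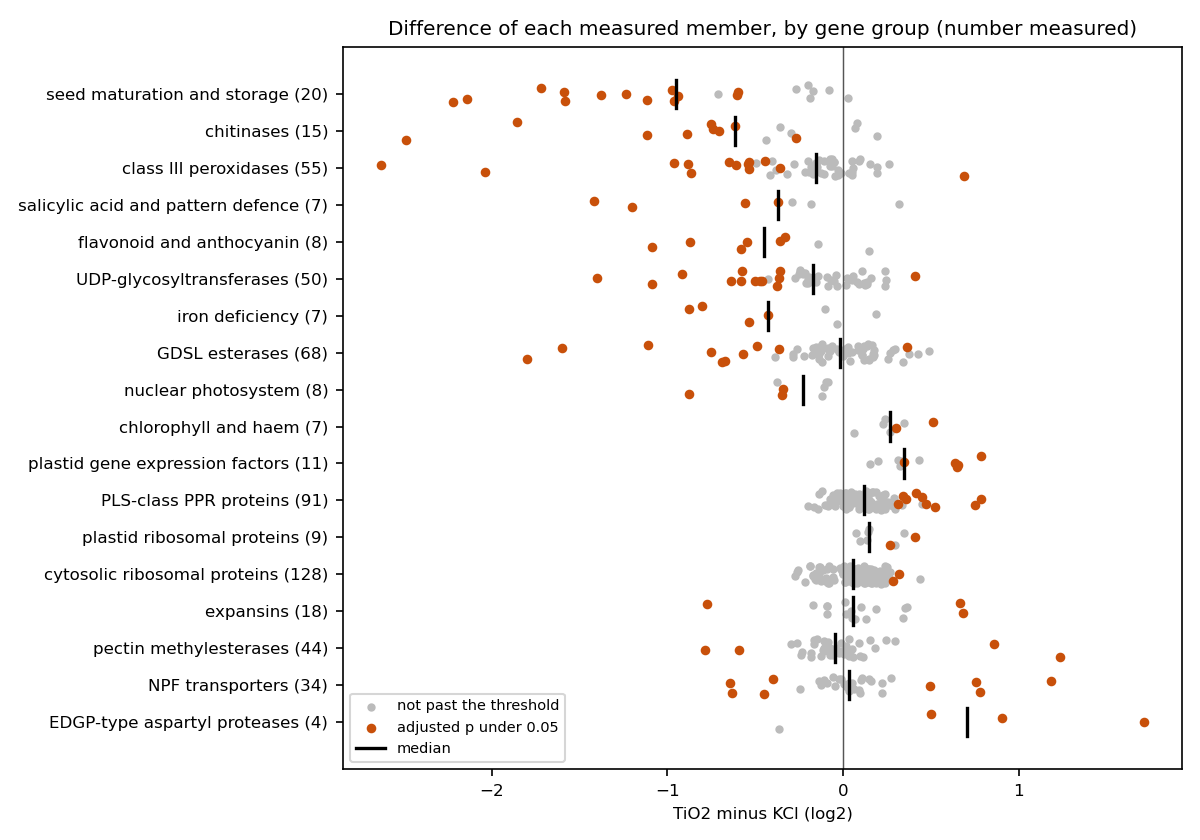
Difference TiO2 minus KCl (log2) of every measured member of 18 gene groups, with the number measured in brackets; orange points passed an adjusted p under 0.05, grey points did not, and the black bar is the group median. Medians run from -0.95 log2 for seed maturation and storage to 0.70 for the 4 EDGP-type aspartyl proteases. The UDP-glycosyltransferases and expansins shown are those with a symbol.

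The largest rises were in genes of several kinds. AT2G16005, a gene of a lipid recognition protein of the ML type, had 6.14, 5.39 and 5.44 log2 in the TiO2 arrays, against 3.51, 3.53 and 3.61 in the KCl arrays. Its KCl arrays were near the floor and TiO2 replicate 1 was the highest, and it rose by 2.11 ± 0.15 log2 (at least 4.31-fold, since the lower group lies near the floor; adjusted p = 2.87e-07). AT5G19110, an aspartyl protease gene of the EDGP type, had 8.34, 8.4 and 8.38 log2 in the TiO2 arrays, against 6.7, 6.7 and 6.58 in the KCl arrays. The arrays of each group lay close together, and it rose by 1.71 ± 0.09 log2 (3.28-fold; adjusted p = 1.37e-08). AT5G19120, the next protein-coding gene, rose by 0.91 (adjusted p = 0.00027) and AT5G19100 by 0.50 (adjusted p = 0.00275). Of 4 measured genes of this type 3 rose (75%, beside 4.05% over all genes). That group was assembled after the values had been seen. AT5G47980, an acyltransferase gene of the thalianol cluster, a row of root triterpene genes, had 8.59, 8.39 and 7.91 log2 in the TiO2 arrays, against 6.72, 7.15 and 6.44 in the KCl arrays. TiO2 replicate 3 was the lowest of its group and still above every KCl array, and the gene rose by 1.52 ± 0.17 log2 (2.88-fold; adjusted p = 2.53e-05).

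Single pectin and wall structure genes rose. AT5G51490, a pectin methylesterase gene, had 6.87, 7.32 and 6.98 log2 in the TiO2 arrays, against 6.0, 5.94 and 5.51 in the KCl arrays. It rose by 1.24 ± 0.15 log2 (2.36-fold; adjusted p = 7.43e-05), and the adjacent AT5G51500, with a KCl mean near the floor, rose by at least 0.86 (adjusted p = 0.00024). The family went both ways: of 44 measured pectin methylesterase genes, listed after the values had been seen, 2 rose (4.55%, beside 4.05% over all genes) and 2 fell (4.55%, beside 5.03%). AT4G25250, a gene of a pectin methylesterase inhibitor, rose by 1.19 (adjusted p = 2.01e-05). AT4G11190, a dirigent protein gene, had 9.74, 9.42 and 9.67 log2 in the TiO2 arrays, against 8.48, 8.61 and 7.9 in the KCl arrays. The groups did not overlap, and it rose by 1.28 ± 0.18 log2 (2.42-fold; adjusted p = 0.000181); AT4G11210, the next protein-coding gene, rose by 0.79 (adjusted p = 0.00558). AT1G26250, an extensin, a structural wall glycoprotein, rose by 1.19 (adjusted p = 9.59e-05). AT2G41800, a DUF642 wall protein gene, rose by 1.07 (adjusted p = 1.81e-05) and the expansin EXPA15, which loosens walls, by 0.67 (adjusted p = 0.000683). Among 18 measured expansin genes with a symbol 2 rose (1 without KCl replicate 1, 4 without KCl replicate 3). This is 11.1%, beside 4.05% over all genes and 5.06% of probe sets with a symbol. EXLB1 alone fell (5.56%, beside 5.03% and 7.97%), by 0.78 (adjusted p = 0.000297).

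Membrane transporter families held both rises and falls. Of 17 measured sugar carriers with a SWEET or TMT symbol 2 rose (11.8%) and 2 fell (11.8%), with a median of -0.02 log2. Beside these stand 4.05% and 5.03% over all genes, and 5.06% and 7.97% of probe sets with a symbol. Carriers under another symbol were not counted there. In the sugar transport list, picked by locus and sharing members with that family, 3 of 12 measured genes rose (25%). In that list 1 fell (8.33%; 1 or 2 when single arrays were left out). SWEET16, a sugar carrier of the vacuole membrane, had 6.25, 6.14 and 6.12 log2 in the TiO2 arrays, against 5.17, 4.92 and 4.73 in the KCl arrays. It rose by 1.23 ± 0.14 log2 (2.34-fold; adjusted p = 4.1e-05). SWEET17 rose by at least 0.54 (adjusted p = 0.00355), with both group means around the floor. SWEET13 and SWEET14 went the other way, by -0.70 and -0.77 log2 (adjusted p = 0.000373 and 0.000516). AT1G72140, of the nitrate and peptide transporter family NPF, had 6.07, 6.29 and 6.02 log2 in the TiO2 arrays, against 4.82, 5.04 and 4.96 in the KCl arrays. It rose by 1.19 ± 0.10 log2 (2.27-fold; adjusted p = 1.11e-06). Of 34 measured NPF genes, a group written after the values had been seen, 4 rose (11.8%, beside 4.05%) and 4 fell (11.8%, beside 5.03%). Falls numbered 2 without TiO2 replicate 2 or without KCl replicate 2. AT3G45680 rose by 0.78 (adjusted p = 0.000338) and AT1G33440 fell by 0.63 (adjusted p = 0.000297). AT5G38030, a gene of the MATE efflux family, rose by 1.25 (adjusted p = 0.000108).

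Some nuclear genes for organelle gene expression rose, by small amounts. Of 91 measured PPR genes of the DYW and other PLS classes, which edit organelle RNA, 9 rose and none fell in limma (0 lower at an unadjusted p under 0.05), 9.89% beside 4.05% over all genes. The median was 0.12 log2. This list was not split by organelle. Averaged over the 91 genes, the level was 4.32, 4.32 and 4.33 log2 in TiO2 replicates 1 to 3, against 4.21, 4.21 and 4.15 in KCl replicates 1 to 3. Such levels are close to the floor, which limits the falls that can be seen. AT4G37380 had 5.58, 5.73 and 5.89 log2 in the TiO2 arrays, against 5.09, 4.79 and 4.97 in the KCl arrays. It rose by 0.79 ± 0.11 log2 (1.73-fold; adjusted p = 0.000145). OTP81, another chloroplast factor of this class, had 5.73, 6.07 and 6.03 log2 in the TiO2 arrays, against 5.22, 5.38 and 4.98 in the KCl arrays. The groups did not overlap, and it rose by 0.75 ± 0.12 log2 (1.68-fold; adjusted p = 0.000763). The 9 rises became 4 with only the 6 compared arrays and 5 without KCl replicate 1.

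A separate set of plastid factors, written after the values had been seen, held 11 measured genes. Of these 5 rose (45.5%, beside 4.05% over all genes) and none fell (0 lower at an unadjusted p under 0.05 in limma). The median was 0.35 log2. The bacterial-type chaperone gene AT5G55220 (trigger factor) had 8.22, 8.26 and 8.47 log2 in the TiO2 arrays, against 7.38, 7.3 and 7.9 in the KCl arrays. KCl replicate 3 was the highest of its group and below every TiO2 array, and the gene rose by 0.79 ± 0.13 log2 (1.73-fold; adjusted p = 0.000915). AT3G08740, a gene of a plastid elongation factor P, rose by 0.65 (adjusted p = 0.000181), and the PPR genes AT5G04810 and AT5G46580 by 0.65 (adjusted p = 0.000698) and 0.64 (adjusted p = 0.000658). Without KCl replicate 3 the rises numbered 8. PORB, which makes chlorophyllide in light, was the chlorophyll gene with the largest rise, 0.51 (adjusted p = 0.00234), and all 7 measured genes of that list had positive differences. All 8 measured nuclear photosystem genes had negative differences, LHCB4.3 the most, a fall of 0.88 (adjusted p = 0.000119).

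Chloroplast-encoded transcripts spread between arrays of a group. Over the 26 measured genes of photosystems and the cytochrome complex, the mean level was 9.73, 9.81 and 9.42 log2 in TiO2 replicates 1 to 3, against 10.14, 9.92 and 9.17 in KCl replicates 1 to 3. Replicate 3 was the lowest in both groups and the groups overlapped. The median difference was -0.11 log2 for these genes and 0.21 log2 for 19 chloroplast-encoded ribosome and polymerase genes, beside the 0.02 log2 of all genes.

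Other lists held few calls. Of 128 measured cytosolic ribosomal protein genes 2 rose (0 to 4 when single arrays were left out), 1.56% beside 4.05% over all genes. None fell, and 12 were higher and 3 lower at an unadjusted p under 0.05 in limma. Their median was 0.05 log2, with a range from -0.27 to 0.44, and 94 of the 128 differences were positive. The wall acetylation genes of the trichome birefringence-like family had 22 measured members, a median of -0.05 log2 and no call (1 higher and 3 lower at an unadjusted p under 0.05 in limma; 1 fell without KCl replicate 1). Small heat shock genes, which are induced when proteins unfold, had a median of 0.05 log2 over 9 measured members, of which 1 rose (0 without TiO2 replicate 3 or without KCl replicate 2, and 2 without TiO2 replicate 1, TiO2 replicate 2 or KCl replicate 3) and none fell (1 lower at an unadjusted p under 0.05 in limma, and 1 call without KCl replicate 3). Root hair growth genes had differences from -0.44 to 0.34 log2 over 4 measured members, of which 1 fell. That call was lost without TiO2 replicate 1, TiO2 replicate 3 or KCl replicate 2, and 1 member rose without TiO2 replicate 1. Iron storage, phosphate starvation, suberin synthesis and the chloroplast translation list had no member with a probe set of its own and give no value here.

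Some of the largest changes were in genes with no role assigned here. Among the 60 largest falls 19 and among the 60 largest rises 18 had none; the other falls included 10 secreted defence proteins and 7 seed genes, and the other rises 9 cell wall proteins and 6 transporters, by roles written down after the values had been seen. AT3G46280 had 5.91, 5.53 and 5.48 log2 in the TiO2 arrays, against 7.26, 7.41 and 7.23 in the KCl arrays. It fell by 1.66 ± 0.11 log2 (3.16-fold; adjusted p = 1.25e-07). AT4G38080, a bright transcript, had 8.0, 8.34 and 8.25 log2 in the TiO2 arrays, against 9.55, 9.97 and 10.04 in the KCl arrays. It fell by 1.66 ± 0.17 log2 (3.15-fold; adjusted p = 1.36e-05). Of the rises, AT1G49500 had 6.49, 6.78 and 6.64 log2 in the TiO2 arrays, against 5.41, 5.27 and 5.26 in the KCl arrays. It rose by 1.32 ± 0.10 log2 (2.5-fold; adjusted p = 5.19e-07). AT5G58570, AT5G26260 and AT1G15010 rose by 1.31, 1.29 and 1.0 log2, and AT2G17660, with a KCl mean near the floor, by at least 1.31. The groups overlapped in none of these genes, by the rule that picked them.

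The remaining members of the 20 largest changes in each direction were enzymes and a leucine-rich repeat protein. AT4G17470, an alpha/beta hydrolase gene, fell by 1.93 (adjusted p = 6.1e-07). AT1G66800, a gene of an NAD(P)-binding reductase, had 5.61, 5.81 and 5.29 log2 in the TiO2 arrays, against 4.13, 4.11 and 4.15 in the KCl arrays. The KCl arrays lay close together, and the gene rose by 1.44 ± 0.11 log2 (2.72-fold; adjusted p = 6.15e-07). AT1G33670, a leucine-rich repeat protein gene with a KCl mean near the floor, rose by at least 1.23 (adjusted p = 2.62e-05). AT5G38020, a methyltransferase gene, rose by 0.99 (adjusted p = 4.14e-05) and AT3G59710, a short-chain dehydrogenase gene, by 0.97 (adjusted p = 7.25e-05).

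The other particle gave fewer calls and, for most of these genes, smaller differences. Ceria against water changed 550 probe sets (2.42%), 286 (1.26%) of them higher and 264 (1.16%) lower. Of the 167 probe sets that were at least 2-fold lower in TiO2, 13 were also called lower in CeO2 and 22 were called higher there; their median difference was -1.27 log2 in TiO2 and 0.15 in CeO2. Of the 37 at least 2-fold higher, 9 were called higher in CeO2 and 3 lower. Of the 550 ceria calls, 103 (18.7%) were titania calls in the same direction. These made up 4.19% of the titania rises (45 of 1073) and 4.35% of the titania falls (58 of 1334). In the opposite direction, 20 of the titania rises were called lower in CeO2 and 70 of the titania falls were called higher there. The difference between the effects of both particles passed the threshold in 1833 probe sets (8.06%). The particle, the control liquid and the set of arrays change together, so their parts in that difference cannot be told apart.

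A few of the largest changes were shared. AT2G43590 fell by 2.52 log2 in CeO2 against water as well, AT5G47980 rose by 1.29 and AT4G11190 by 2.45. SWEET16, AT1G49500 and AT5G26260 rose there too, by 0.68, 0.45 and 0.43 log2. For AT1G49500 and AT5G26260 the difference between the effects of both particles passed the threshold as well. Others ran opposite ways, each past the threshold. AT5G19890, AT4G12500 and AT3G53980 were higher in CeO2 than in water, by 0.83, 0.89 and 0.73 log2, and AT1G26250 was lower there by 1.45.

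**Figure D4:**
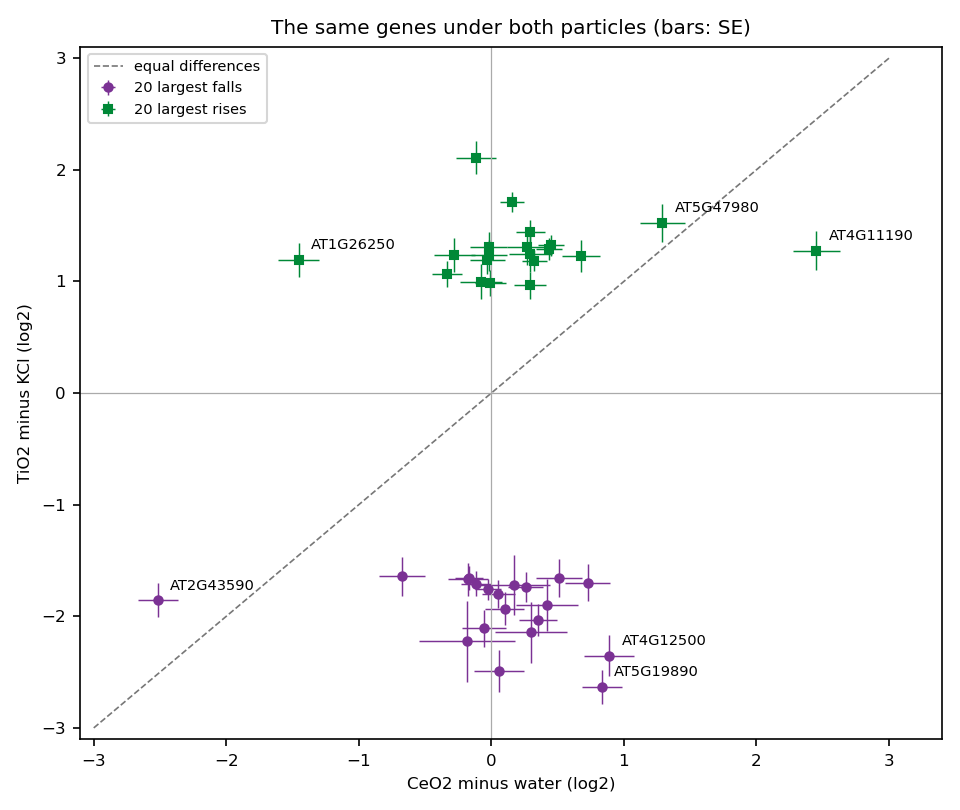
Difference TiO2 minus KCl against difference CeO2 minus water, both in log2 with SE bars, for the 20 largest titania falls (circles) and 20 largest rises (squares); the dashed line marks equal differences. Most points lie near 0 on the ceria axis, and genes past 0.8 log2 there are named.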

How the data were processed

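The deposited values are log2 expression per probe set, which the authors made with RMA (background correction, normalization and summary of probes), per the submitters' processing notes; its version, the probe definitions and the arrays normalized together are not given in the sources used here. All 22746 probe sets were used, with no filter. A linear model with 1 mean for each of the 4 groups of 3 arrays was estimated by limma 3.58.1 under R 4.3.3, using empirical Bayes moderation, two-sided tests and Benjamini-Hochberg adjustment over all probe sets, threshold 0.05. Residual degrees of freedom were 8 and prior ones 7.63. The median standard error (SE) of TiO2 minus KCl was 0.106 log2; errors after a change are SEs, and the small number of arrays limits precision. The fit was tested on simulated data.

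Probe sets were named through the supplied probe annotation, and 13436 of the 13513 with exactly 1 gene were matched to RefSeq (TAIR10.1) by gene ID, for symbols and gene order only; locus numbers are used where no symbol exists. A gene in a list counts at its brightest probe set.

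The comparison, the gene lists and the families were chosen with earlier results of these data known. Families first defined by gene descriptions were redefined by locus and symbol once the reference proved to hold none. Named genes are the 20 largest falls and 20 largest rises among probe sets of 1 gene past the threshold without overlap between groups, and per list up to 4 such members (at most 2 per direction where both occur). Not all list members picked this way appear in the text. Those that lost their call in an alternative fit are left out, PRX44 excepted. Genes of groups said to be written after the values were seen, neighbours in a gene row, and members that did not pass fall outside that rule. Alternatives were the 6 compared arrays only, a second quantile normalization, median centring, leaving out the dimmest 30%, an intensity trend with robust prior, a replicate block and leaving out each array.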

Additional observations from a re-analysis of the deposited data

Results flagged for a closer look

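The values given here are the titania effect minus the ceria effect, (TiO2 minus KCl) minus (CeO2 minus water), in log2. A result stands here because that difference passed an adjusted p under 0.05 in limma, which held for 71 of the 92 genes whose values the text uses, with adjusted p up to 0.0332. These genes were named for their titania difference, which is part of the value, and particle, control liquid and array set cannot be told apart in it. No explanation was weighed.

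In secreted defence and wall genes the difference was -3.46 for AT5G19890, -2.54 for AT2G43620, -2.39 for AT1G49570 and -2.05 for AT3G22060. It was -1.59 for AT1G18980, -1.36 for AT1G50060, -1.18 for AT2G43600 and -1.18 for AT1G34510, and -0.97 for AT5G48540 and -0.56 for AT2G43610. For AT1G34510 both particles were above their control and ceria by more. In the opposite sense it was 2.2 for CHI, a gene that did not pass the threshold in TiO2 and was -2.01 log2 in CeO2 against water, and 2.65 for AT1G26250, whose 2 effects had opposite signs.

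Seed, lipid transfer and surface lipid genes, with the membrane protein gene AT1G04560, gave -3.24 for AT4G12500, -2.44 for AT1G54870, -2.42 for AT3G53980 and -2.32 for AT1G04560. The remaining ones of these groups gave -2.26 for AT3G15670, -2.04 for M17, -1.89 for AT2G28490, -1.85 for AT5G37690 and -1.09 for AT4G12490. Each of them fell in TiO2.

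Among enzymes and transporters that fell in TiO2 the difference was -2.03 for AT4G17470, -2.0 for ASPGB1, -1.73 for AT2G36690 and -1.71 for UGT84A3. It was also -1.49 for JRG21, -1.48 for AT5G05600, -1.43 for NRT2.5 and -1.41 for UGT72E1, -1.34 for BCAT4, -1.01 for SWEET13, -0.86 for DFR and -0.84 for AT1G33440, and -0.83 for SWEET14 and -0.80 for WES1. For regulators, signalling genes and others it was -1.28 for WRKY22, -1.29 for RALFL27, -1.11 for BHLH101 and -1.09 for LHCB4.3, -1.0 for EXLB1, -0.53 for APG8A and -0.48 for PUB25, and, among genes with no role assigned here, -2.17 for AT4G38080 and -1.49 for AT3G46280. The defence factor WRKY53 had 1.06; it was 0.32 in TiO2 against KCl and -0.74 in CeO2 against water.

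Genes that rose in TiO2 mostly had positive differences. These were 2.22 for AT2G16005, 1.56 for AT5G19110, 1.51 for AT5G51490 and 1.4 for AT2G41800 among secreted and wall proteins, followed by 1.23 for AT4G25250, 1.23 for AT5G19120, 1.01 for AT5G51500 and 0.58 for AT5G19100. The difference had the other sign, -1.18 for AT4G11190; it rose under both particles and by more in CeO2. For plastid factors the values were 1.02 for AT5G04810, 1.01 for AT5G55220 and 0.93 for AT3G08740, and 0.85 for OTP81, 0.78 for AT5G46580 and 0.65 for AT4G37380. For the other rises they were 1.33 for AT5G58570, 1.25 for AT1G33670, 1.15 for AT1G66800 and 1.08 for AT1G15010, 1.04 for AT2G17660, 0.99 for AT5G38020 and 0.95 for AT5G38030, and 0.87 for AT1G49500, 0.86 for AT1G72140, 0.86 for AT5G26260 and 0.68 for AT3G59710.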

How the results depend on the processing

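Fitted on the 6 TiO2 and KCl arrays alone, 1432 probe sets passed the threshold in TiO2 against KCl, 560 higher and 872 lower, against 2407, 1073 and 1334 with all 12; this fit has fewer arrays to estimate the spread. Leaving out each of the 6 arrays in turn gave 1782 to 2551 probe sets, 679 to 1061 higher and 1008 to 1490 lower, and 1558 to 2072 for the difference between the particles' effects. The second quantile normalization, median centring, leaving out dim probe sets and the intensity trend kept all these counts within 1.5 times. A replicate block gave 2886, 1309 higher and 1577 lower, and 2148 for the difference between the particles' effects. Same-numbered TiO2 and KCl arrays deviated from their group means with correlations of 0.114, 0.0464 and 0.274, and TiO2 replicate 2 correlated best with KCl replicate 1 (0.221), so the numbers were not taken to pair the samples. Apart from PRX44, the genes named in the text as risen or fallen are among those that kept their call in every fit that tested them. This does not describe all the genes picked. Of 163 genes that the naming rule picked or the text names, 48 lost their call in at least 1 fit, and 42 did so with only the 6 compared arrays. Of the genes with differences near 0, the jasmonate list's AT3G11180 ranged from -0.1309 to 0.0558 log2 when single arrays were left out, AT1G62510 from -0.0587 to 0.1148 and AT2G45180 from -0.0657 to 0.0693. Counts within gene lists were tried under the same alternatives after the data had been seen, and moved by over 1.5 times in 34 of 128 list counts with the 6 arrays and in 10 to 32 under the others. Calls are limited by 3 arrays per group and, near the floor, by signal over background.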
